A study of Homo sapiens with 4 samples.

Results

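Nuclear genes that encode the subunits and assembly factors of the oxidative phosphorylation complexes were followed in H9 human embryonic stem cells after knockdown of UPF1. Members were the coding genes (rows with a RefSeq NM_ transcript) whose symbol begins with NDUF, UQCR or ATP5, is COX followed by a number, or is SDHA, SDHB, SDHC or SDHD. This gave 98 of the 15942 genes in the table. By symbol, 39 were complex I subunits, 7 complex I assembly factors, 4 complex II subunits, 9 complex III subunits, 12 complex IV subunits, 9 complex IV assembly factors and 16 complex V subunits. ATP5S and ATP5SL carry an ATP5 symbol but are not structural subunits, and these 2 were kept apart.

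The siUPF1 group held 2 libraries from H9 cells given an siRNA against UPF1, and the control group held 2 libraries from H9 cells given siLuc, an siRNA against luciferase. H9 is a single established line of human embryonic stem cells, grown here on Matrigel in all 4 cases, and total RNA was sequenced. A treatment text that all 4 libraries share also names an siRNA against UPF3A and a time course of the transcription inhibitor actinomycin D, without saying which time, if any, belongs to which library. The labels do not state whether replicate libraries were made from different cultures. A p-value here therefore reflects how far these 4 libraries vary, and that variation may be technical.

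Oxidative phosphorylation takes electrons from NADH at complex I and from succinate at complex II, passes them through ubiquinone to complex III and through cytochrome c to complex IV, where oxygen is reduced. Complexes I, III and IV move protons across the inner mitochondrial membrane, and complex V, the ATP synthase, lets them back to make ATP. Most subunits come from nuclear genes and are joined in the mitochondrion to a core made from mitochondrial DNA, with the help of assembly factors that insert heme, copper or iron-sulfur clusters and do not stay in the finished complex. Pluripotent cells are known to draw much of their energy from glycolysis while keeping the respiratory chain assembled. UPF1 is the RNA helicase at the centre of nonsense-mediated decay, which degrades transcripts with premature stop codons and some normal transcripts, long 3′ UTRs being a known trigger.

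The libraries held 10058515 and 11200973 counts in siUPF1 cells and 8887239 and 9937231 counts in control cells, so siUPF1 libraries were together 12.9% deeper. UPF1 itself had 60.8 and 78.2 CPM (counts scaled to 1000000 per library, with TMM size factors) in siUPF1 cells, against 219 and 205 CPM in control cells. It averaged 69.5 ± 12.3 CPM in siUPF1 cells and 212 ± 10.1 CPM in control cells (SD, n = 2 each), or 32.8% of control, with a log2 fold change of -1.60 ± 0.07 (SE; edgeR's quasi-likelihood test, Benjamini-Hochberg adjusted p = 1.06e-102). All 8 markers of undifferentiated cells were measured. They had summed levels of 1629 and 1499 CPM in siUPF1 cells and 1882 and 1750 CPM in control cells, and 5 of them fell. That is 62.5% of the 8, against 9.14% of all genes tested called as fallen. With the read-density trend removed 2 of the 8 fell, and with DESeq2 3. Their median read density was 0.719 reads per transcript base, with NANOG at 0.444. Of all 1072 genes tested at 0.5 reads per base and over, 87.6% lay below 0 and 169 were called as fallen. Of 4 fibroblast markers, COL1A1, COL1A2 and THY1 were in the table, each between 156 and 185 CPM in every library and none past the test. Of 16 markers of endoderm, mesoderm, neural ectoderm and trophoblast, 8 were tested, all at 12.9 CPM or less in every library. FOXA2 (endoderm) and MIXL1 (mesoderm) fell, with log2 fold changes of -2.97 and -0.82, and TBX6 (mesoderm), OTX1 (neural ectoderm) and GATA3 (trophoblast) rose, with 0.72, 1.23 and 1.19. FOXA2 had 0.600 and 0.534 CPM in siUPF1 cells, against 4.98 and 4.09 CPM in control cells. Only its control libraries carried it past the low-count filter. Of these 5, FOXA2 and GATA3 also passed with DESeq2. The part of all these markers in the results below was not tested.

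Of the 98 members, 97 had enough counts to be tested, 4 of these rose in siUPF1 cells, 2 fell and 91 did not pass an adjusted p of 0.05. The 4 that rose were the complex IV assembly factor COX19, the complex I subunits NDUFC2 and NDUFA10 and the complex I assembly factor NDUFAF5. The 2 that fell were the complex IV subunit COX6B2 and the complex V subunit ATP5J. COX6B2 reached the test through its control libraries alone. Across all 15557 genes tested, 4035 (25.9%) were called in either direction, 2613 (16.8%) as risen and 1422 (9.14%) as fallen. The called share of the members, 6.19%, was thus below that of all genes. In RNA from whole cultures, fewer cells that express a gene and less RNA per cell cannot be told apart.

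The members that did not pass had small differences that mostly pointed the same way. The median log2 fold change of the 97 tested members was -0.10, with quartiles of -0.16 and -0.04, against a median of -0.01 over all genes tested, and 78 of 97 members had a value below 0. Both siUPF1 libraries were below both control libraries for 46 members (47.4%), against 31.1% of all genes. Both were above both control libraries for 10 members (10.3%), against 32.3% of all genes. Summed over the members, levels were 4413 and 4090 CPM in siUPF1 cells and 4465 and 4303 CPM in control cells, and these sums overlapped between the groups.

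The medians of subunits and of assembly factors lay on different sides of 0. The 79 tested subunits of the 5 complexes had a median log2 fold change of -0.12, with 72 below 0, 2 risen and 2 fallen. The 16 assembly factors had a median of 0.10, with 6 below 0, 2 risen and none fallen. Summed levels of the assembly factors were 706.9 and 676.2 CPM in siUPF1 cells and 607.0 and 624.3 CPM in control cells, with no overlap, COX19 alone giving over 86 CPM of the sum in each siUPF1 library. The 2 kinds of gene also differed in read density, given below, and the difference between them was not tested. Both medians kept their sign under all 12 alternatives, the assembly factors' between 0.015 and 0.13 and the subunits' between -0.19 and -0.048. Without siUPF1 replicate 1 the medians were 0.015 for assembly factors and -0.19 for subunits, and without siUPF1 replicate 2 they were 0.13 and -0.048. Among members under 0.25 reads per base, the median was 0.11 over 10 assembly factors and -0.089 over 9 subunits. The 33 tested assembly factors outside the symbol rule had a median of 0.03, with 14 below 0 and no call.

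**Figure D1:**
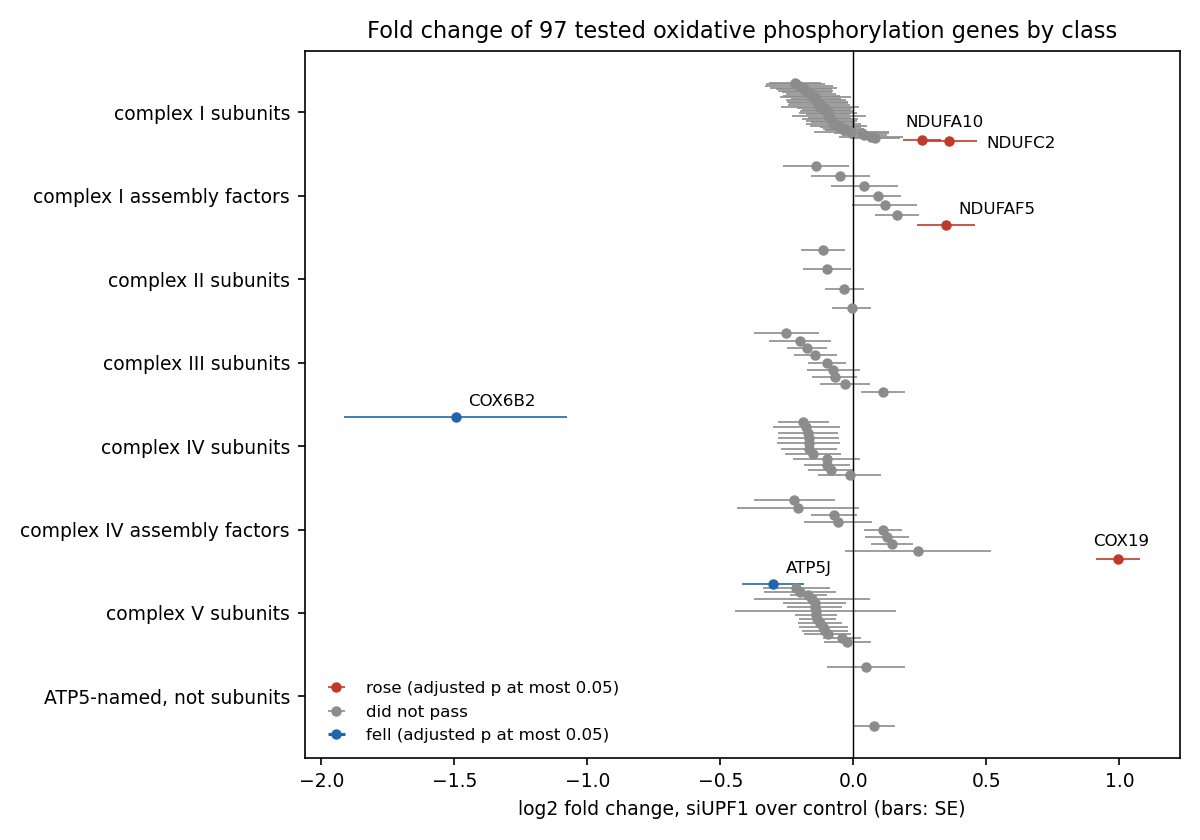
Log2 fold change of siUPF1 over control for the 97 tested members, by class. Points are single genes, bars are the SE of the fold change, red marks the 4 genes that rose, blue the 2 that fell and grey those that did not pass. Most subunits sit between 0 and -0.25, while COX19 lies near 1 and COX6B2 near -1.5.

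Complex I, the entry point for electrons from NADH, had 2 risen subunits and no fallen one among 38 tested. NDUFA10, an accessory subunit, had 108.1 and 104.3 CPM in siUPF1 cells, against 91.4 and 86.3 CPM in control cells. The groups did not overlap, and the log2 fold change was 0.26 ± 0.07 (SE; edgeR adjusted p = 0.0030). NDUFC2, an accessory subunit of the membrane arm, had 40.8 and 35.6 CPM in siUPF1 cells, against 27.9 and 31.4 CPM in control cells. These groups did not overlap either, and the log2 fold change was 0.36 ± 0.10 (SE; edgeR adjusted p = 0.0042). Neither gene passed with DESeq2 (adjusted p = 0.074 for NDUFA10 and 0.126 for NDUFC2). NDUFA10 lost its call without control b (adjusted p = 0.185) and with genes under 0.25 reads per base alone (adjusted p = 0.052), and NDUFC2 lost it without siUPF1 replicate 1 or without control a (adjusted p = 0.061 and 0.208). NDUFC2 shares its locus with the readthrough gene NDUFC2-KCTD14 and with THRSP, whose reads could not be told apart from its own here.

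The other 36 tested complex I subunits did not pass, and the median over the class was -0.10. NDUFV2, an iron-sulfur protein of the module that oxidises NADH, had 37.6 and 35.3 CPM in siUPF1 cells, against 43.7 and 41.2 CPM in control cells (log2 fold change -0.22 ± 0.10, SE; edgeR adjusted p = 0.078). NDUFB4, an accessory subunit of the membrane arm, had 29.3 and 26.5 CPM in siUPF1 cells, against 33.1 and 31.7 CPM in control cells. In both genes the 2 siUPF1 libraries were below the 2 controls. In reads per transcript base, a scale that allows for transcript length, the class ran from 0.119 for NDUFA5 to 0.597 for NDUFB10 among tested subunits. No gene with at least 100 counts exceeded 1.12 on this scale. Whether it ranks densely read genes by their level was not tested.

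NDUFA4L2 was the member left untested for low counts. It is a hypoxia-associated relative of NDUFA4, a subunit first placed in complex I and now in complex IV, and is kept here with complex I by its symbol. Counts of NDUFA4L2 were 9 and 18 in siUPF1 cells and 4 and 2 in control cells, whereas NDUFA4 had 35.5 and 31.9 CPM in siUPF1 cells and 35.7 and 35.1 CPM in control cells. The counts of NDUFA4L2 did not overlap between groups but were too few to say more.

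The complex I assembly factors held 1 risen and no fallen gene among 7, with a median log2 fold change of 0.09. NDUFAF5, which hydroxylates a residue of the subunit NDUFS7 early in assembly, had 36.0 and 34.5 CPM in siUPF1 cells, against 27.0 and 28.2 CPM in control cells. Both siUPF1 libraries lay above both controls, and the log2 fold change was 0.35 ± 0.11 (SE; edgeR adjusted p = 0.0083). The call was lost with DESeq2 (adjusted p = 0.142) and without either control library (adjusted p = 0.156 without control a and 0.081 without control b). NDUFAF7, a methyltransferase of complex I assembly, had 64.8 and 60.7 CPM in siUPF1 cells, against 56.1 and 55.9 CPM in control cells, and did not pass (edgeR adjusted p = 0.135). NDUFAF2, which acts late in assembly, had the lowest fold change of the class, with 25.5 and 21.6 CPM in siUPF1 cells and 26.6 and 25.2 CPM in control cells, and its groups overlapped.

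In complex II, which feeds electrons from succinate into the chain, none of the 4 subunits passed and all 4 had fold changes close to and below 0. The flavoprotein SDHA had 97.8 and 95.8 CPM in siUPF1 cells and 98.5 and 96.1 CPM in control cells, with a log2 fold change of -0.01 ± 0.07 (SE). SDHD, a membrane anchor, had 62.7 and 54.6 CPM in siUPF1 cells and 63.9 and 62.9 CPM in control cells, with -0.12 ± 0.08 (SE). The iron-sulfur subunit SDHB and the other anchor SDHC lay between them.

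In complex III, which passes electrons to cytochrome c, none of 9 subunits passed and the median was -0.10. UQCRC2, a core protein, had 82.3 and 76.4 CPM in siUPF1 cells, against 90.2 and 89.0 CPM in control cells (log2 fold change -0.18 ± 0.08, SE; edgeR adjusted p = 0.069). The Rieske iron-sulfur protein gene UQCRFS1 had 64.8 and 55.8 CPM in siUPF1 cells, against 67.6 and 65.4 CPM in control cells. UQCRHL, an intronless near-copy of UQCRH that can share its reads and is therefore uncertain, had 23.6 and 21.2 CPM in siUPF1 cells, against 27.6 and 25.7 CPM in control cells. In each of these 3 genes the siUPF1 libraries lay below both controls without passing the test. UQCR11 was the subunit with a fold change above 0, at 0.11, and its groups overlapped.

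The complex IV subunits held 1 fallen and no risen gene among 12, and all 12 had log2 fold changes below 0, with a median of -0.17. COX6B2, known as the testis form of the subunit that COX6B1 supplies elsewhere, fell on few reads. It had 8 and 7 counts in siUPF1 cells, against 20 and 18 counts in control cells. Only the control libraries were high enough for the low-count filter, so this call should not be read as support. The filter of 5 CPM in 2 libraries left the gene out. The groups did not overlap, at 0.800 and 0.624 CPM in siUPF1 cells and 2.26 and 1.80 CPM in control cells, and the log2 fold change was -1.50 ± 0.42 (SE; edgeR adjusted p = 0.0026). With DESeq2 it did not pass (adjusted p = 0.181), nor without control a (adjusted p = 0.068). COX6B1 had 29.4 and 24.9 CPM in siUPF1 cells and 31.7 and 29.3 CPM in control cells, with overlapping groups.

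The other complex IV subunits were measured at higher levels and did not pass. COX5A had 39.3 and 36.4 CPM in siUPF1 cells, against 45.0 and 41.3 CPM in control cells (log2 fold change -0.19 ± 0.10, SE; edgeR adjusted p = 0.136), without overlap. Among genes with a tissue-specific sister form, COX4I1, COX6A1, COX7A2 and COX8A had log2 fold changes of -0.10, -0.15, -0.01 and -0.17. The sister forms COX4I2, COX6A2, COX7A1 and COX8C were not among the genes in the table and could not be analysed. COX7C had the highest read density of the class, 0.713 reads per transcript base, and COX6B2 the lowest, 0.00799.

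The complex IV assembly factors held the member with the smallest p-value. COX19, a small twin-CX9C protein of the intermembrane space that is needed for copper delivery to complex IV, had 86.1 and 88.1 CPM in siUPF1 cells, against 44.1 and 43.4 CPM in control cells. It averaged 87.1 ± 1.39 CPM in siUPF1 cells and 43.8 ± 0.51 CPM in control cells (SD, n = 2 each), the groups lying far apart. The log2 fold change was 0.99 ± 0.08 (SE; edgeR adjusted p = 7.2e-31), that is 1.99-fold. The call held under all 12 alternatives run, with adjusted p between 1.6e-31 and 6.2e-05, DESeq2 included. No other gene overlaps COX19 in RefSeq.

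The other 8 complex IV assembly factors did not pass. COX17, the copper chaperone upstream in the same delivery route, had 14.4 and 13.0 CPM in siUPF1 cells and 16.1 and 15.9 CPM in control cells, so both siUPF1 libraries were lower (log2 fold change -0.22 ± 0.15, SE). COX11, which places copper in the core of complex IV, had 65.5 and 64.8 CPM in siUPF1 cells and 57.9 and 61.3 CPM in control cells. COX10, the heme O synthase, had 74.0 and 67.2 CPM in siUPF1 cells and 61.9 and 65.5 CPM in control cells. For COX10 and COX11 both siUPF1 libraries were above both controls, with log2 fold changes of 0.15 and 0.13 that did not pass. An antisense gene, COX10-AS1, had 112 and 139 counts in siUPF1 cells and 85 and 117 in control cells. The use of strand in counting is not given, so whether COX10 shares reads with it is not known.

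The complex V subunits held 1 fallen and no risen gene among 16, with a median of -0.14 and all 16 values below 0. ATP5J, coupling factor 6 of the peripheral stalk, had 250 and 263 counts in siUPF1 cells, against 277 and 285 counts in control cells, and averaged 24.2 ± 1.12 CPM in siUPF1 cells and 29.9 ± 2.06 CPM in control cells (SD, n = 2 each). The groups did not overlap, and the log2 fold change was -0.30 ± 0.12 (SE; edgeR adjusted p = 0.041). The call was lost with DESeq2 (adjusted p = 0.262), with the read-density trend removed (0.060), and without siUPF1 replicate 2, control a or control b (0.127, 0.412 and 0.096). ATP5J overlaps GABPA in the genome, a gene with 85.8 and 86.1 CPM in siUPF1 cells and 96.6 and 90.5 CPM in control cells. The alpha and beta subunits of the catalytic head did not pass. ATP5B, the beta subunit, had 138.5 and 126.5 CPM in siUPF1 cells, against 154.7 and 143.1 CPM in control cells (edgeR adjusted p = 0.059), and ATP5A1, the alpha subunit, had 136.6 and 122.2 CPM in siUPF1 cells, against 147.6 and 136.7 CPM in control cells (edgeR adjusted p = 0.142).

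The 3 genes for subunit c of the rotor, ATP5G1, ATP5G2 and ATP5G3, make the same mature protein and had log2 fold changes of -0.15, -0.10 and -0.04, none past the test. ATP5S and ATP5SL, not structural subunits, had log2 fold changes of 0.05 and 0.08 and did not pass. Values of ATP5E, ATP5L2, UQCRB and NDUFAF4 are uncertain, since near-identical copies or pseudogenes such as ATP5EP2, UQCRBP1 and NDUFAF4P1 can share their reads.

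**Figure D2:**
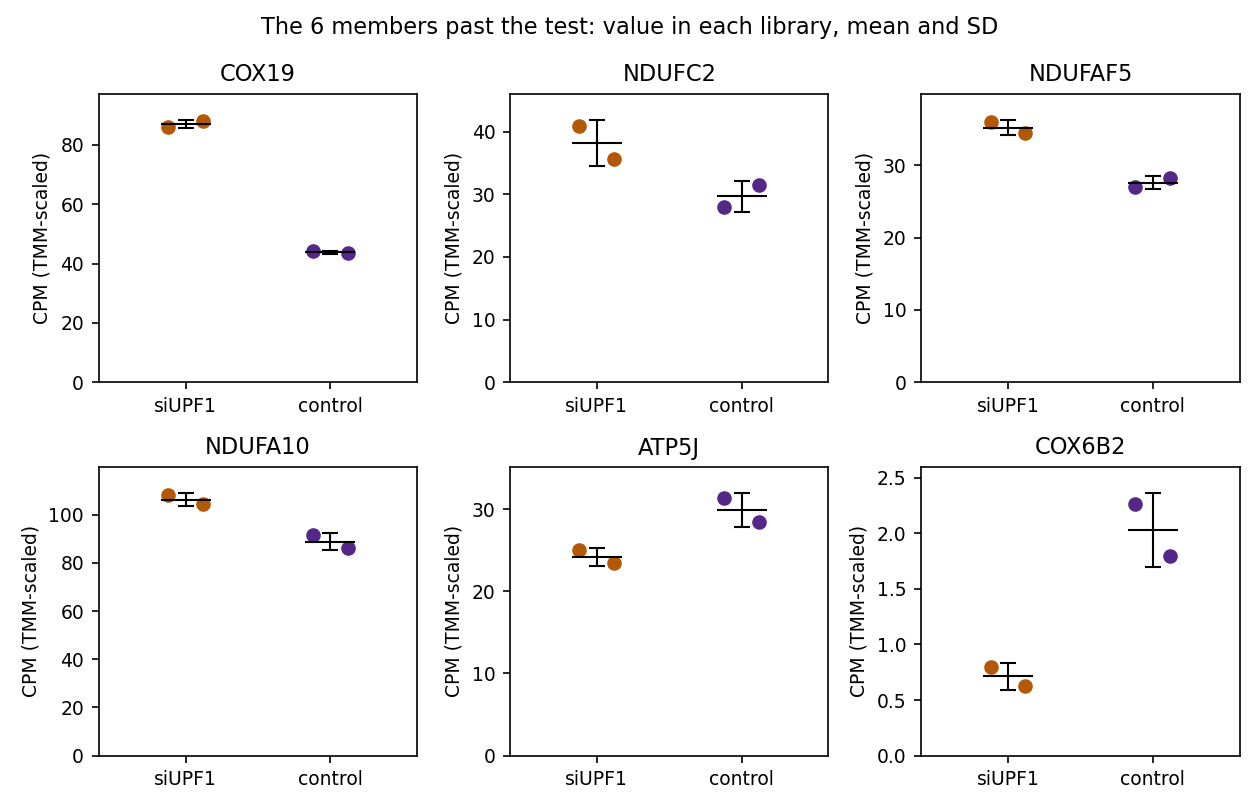
TMM-scaled CPM of the 6 members past the test, in the siUPF1 libraries (left) and the control libraries (right) of each panel. Points are single libraries, the black line is the mean and the bar its SD (n = 2 each). The groups do not overlap in any panel, and COX19 shows the widest gap relative to its spread.

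Read density moved with the fold change, and most subunits are short and densely read. Counts divided by the transcript length behind the deposited RPKM values gave a median of 0.411 reads per transcript base for the members, against 0.172 for all genes tested. The median of that length was 912 nt for members and 2740 nt for all genes. Across genes, fold change was lower where density was higher, with a Spearman rho of -0.42 over the 97 members and -0.18 over all 15557 genes, a description over genes that share the same 4 libraries.

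Members under 0.25 reads per base numbered 20, and these held all 4 risen genes and 1 of the 2 fallen ones. Among all 10126 genes of that density 2158 rose and 921 fell, a called share of 30.4%, so 5 calls in 20 members were not above the background. Their median log2 fold change was -0.00, against 0.05 for all genes of that density. The 49 members between 0.25 and 0.5 had a median of -0.09, against -0.04 for 4359 genes, with ATP5J the single call (2.04%, against 17.5% of all genes of that density). The 28 members at 0.5 and over had a median of -0.14, against -0.12 for 1072 genes, none of the 28 passed, against 17.9% of all genes of that density called, and all 28 lay below 0, as did 87.6% of all genes of that density. Among those 28, 20 had both siUPF1 libraries below both controls (71.4%), against 54.5% of all genes of that density.

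With the density trend over all genes removed, the members' median moved to -0.05, against -0.01 for all genes. Of the 97 members 72 were still below 0, against 8085 of all 15557 genes. In that fit 5 members rose and 1 fell, while 2386 of all genes rose and 1639 fell. The 4 members named above as risen passed again, with ATP5SL as the fifth (log2 fold change 0.15, edgeR adjusted p = 0.046), and COX6B2 was the one that fell. The median of the assembly factors was then 0.06 and that of the subunits -0.05.

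**Figure D3:**
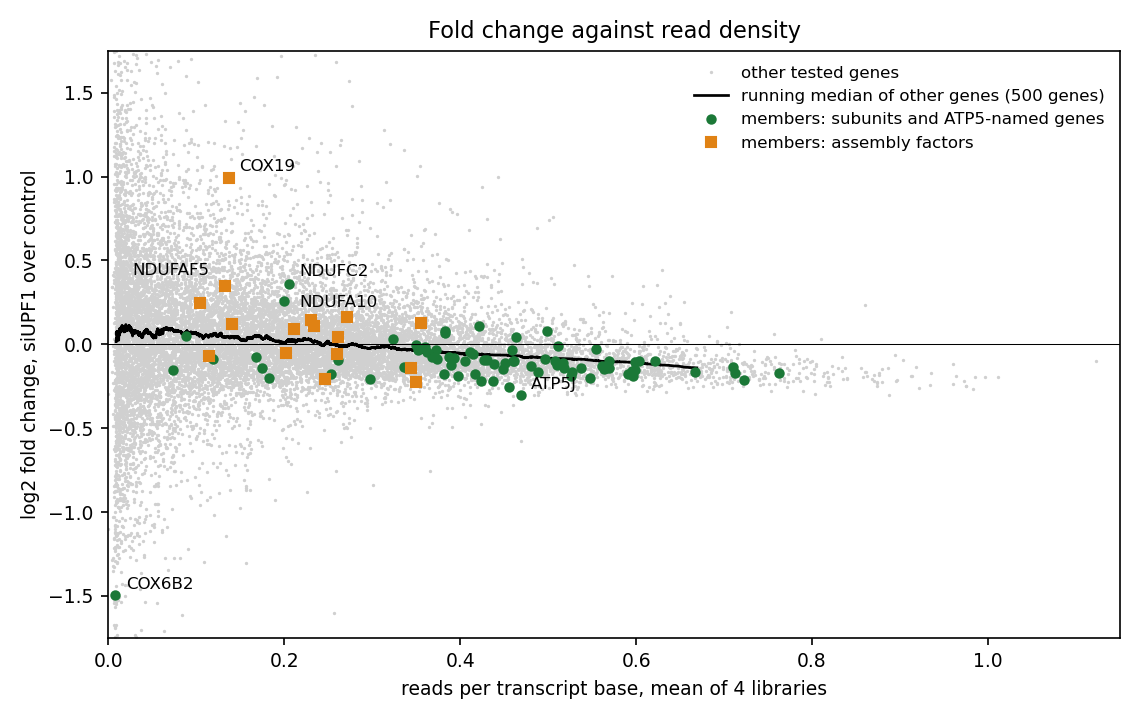
Log2 fold change of siUPF1 over control against reads per transcript base (mean of the 4 libraries). Grey points are other tested genes, the black line their running median over 500 genes, green circles are subunits and ATP5-named members and orange squares assembly factors. The y axis leaves out the other genes with the largest changes. The running median slopes below 0 with density. With the density trend removed, 24 of 28 members at 0.5 reads per base and over lay below 0, with a median of -0.046. Of all 1072 genes of that density 593 then lay below 0, with a median of -0.009.

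The same lean appeared between libraries of 1 group. The members' median log2 ratio was -0.12 for siUPF1 replicate 2 over replicate 1, with 89 of 97 members below 0, and -0.07 for control b over control a, with 77 of 97 below 0. In each of these pairs the deeper library stands on top, being 11.4% deeper in siUPF1 cells and 11.8% deeper in control cells. Between the groups, the median ratio was -0.07 and -0.01 for siUPF1 replicate 1 over control a and control b, and -0.20 and -0.13 for siUPF1 replicate 2 over the same controls. The median differences between replicates thus lay within the range of those between the groups. The part of depth in the members' median was not tested.

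**Figure D4:**
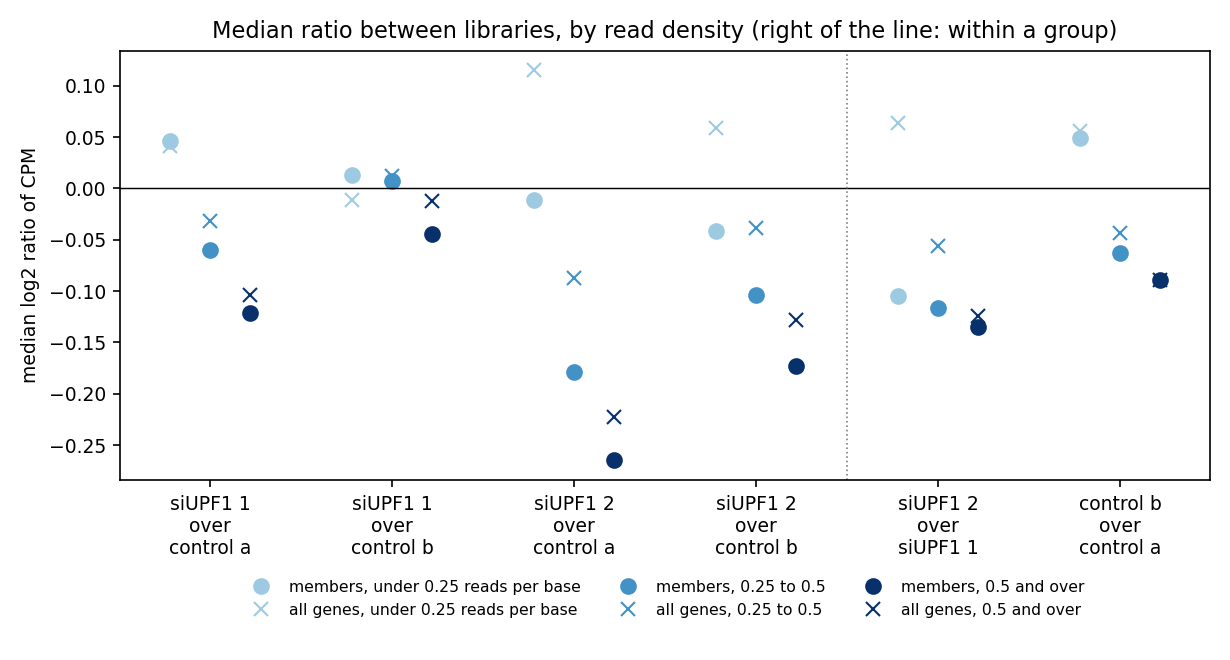
Median log2 ratio of CPM between pairs of libraries, for members (circles) and all tested genes (crosses), by read density. The first 4 pairs set a siUPF1 library over a control library, and the last 2, right of the dotted line, compare libraries of 1 group. At 0.5 reads per base and over, all 6 pairs lie below 0, within groups as well as between them.

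Transcript features that bear on decay by UPF1 were read from the GENCODE 29 annotation (GRCh38). For 66 tested members the annotated transcript and the length behind the RPKM values differed by at most 20%. Their median 3′ UTR was 199 nt and their median coding length 453 nt, against 1017 nt and 1428 nt over 11230 genes. Only 10 of the 66 had a 3′ UTR of 1000 nt or more, or 15.2%, against 50.5% of all genes. NDUFA10 (3746 nt), NDUFC2 (1524 nt) and COX6B2 (1213 nt) were among these 10, so that group held 2 risen and 1 fallen member. That is 30.0% called, against 30.6% of all genes with a 3′ UTR of that length, a share at the background. The other 56 held no risen member and 1 fallen one, ATP5J, with a 3′ UTR of 160 nt, or 1.79% called, against 1278 of 5555 genes with a 3′ UTR under 1000 nt. COX19 and NDUFAF5 had no transcript within 20% and are in neither group.

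Across the 66 members, fold change and 3′ UTR length had a Spearman rho of 0.42, and read density and 3′ UTR length had one of -0.55, so both features ran together. An annotated transcript of the nonsense-mediated decay type was present for 49 of 96 members (51.0%), against 41.0% of all genes. COX19, NDUFA10 and NDUFAF5 were 3 of these 49, which held no fallen member, while 979 of 5605 genes with such a transcript rose and 395 fell (6.12% of these members called, against 24.5% of genes). The 47 members with no such transcript held NDUFC2 as risen and COX6B2 and ATP5J as fallen, while 1281 of 8064 genes with no such transcript rose and 947 fell (6.38% against 27.6% called). Counts per gene do not separate these transcripts from the main one.

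Promoters were compared because nuclear respiratory genes are known targets of NRF1, of ETS factors such as GABP, and of YY1. RefSeq (GRCh38.p14) gave a window from 250 bases before to 50 bases after the start for 81 of the 98 members. Motifs were searched on both strands. The NRF1 core GCGCATGC was in 22.2% of member genes and in 4.89% of 15843 coding genes. An ETS core, CCGGAAG, was in 30.9% of members and 16.5% of coding genes, and the YY1 motif AAGATGGC in 16.0% and 4.66%. The CCAAT box, CCAAT, was in 37.0% of members and 42.1% of coding genes, and the composite element TGATGNAA, bound by ATF4, in 2.47% and 3.60%. Across all 27305 genes with a window the shares were 3.68% for NRF1, 12.2% for ETS, 3.52% for YY1, 39.7% for CCAAT and 4.46% for the composite element. These are matches of letters and not measured binding.

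**Figure D5:**
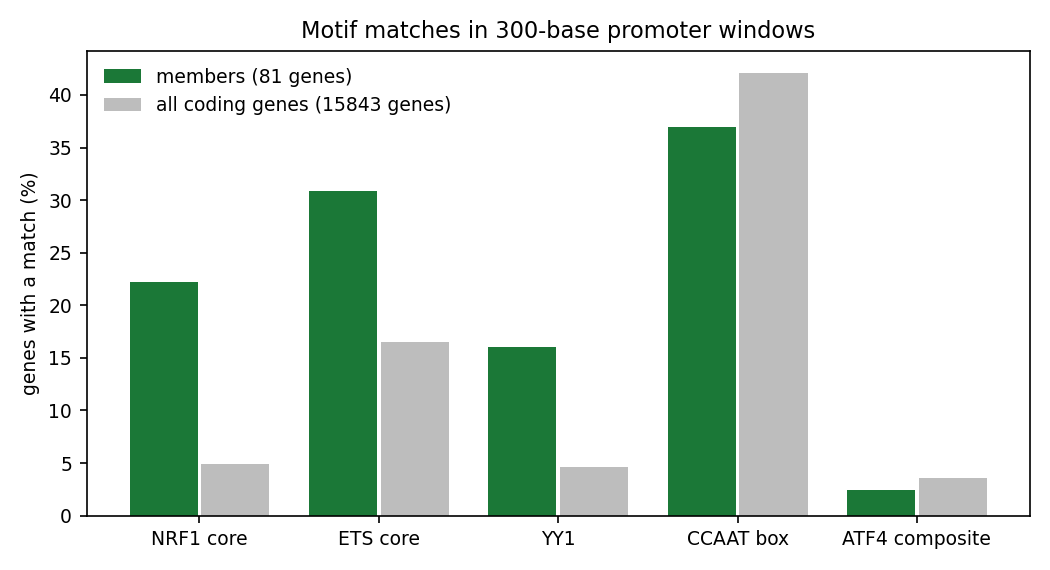
Share of genes with a match to each of 5 motifs in the 300-base promoter window, for 81 member genes (green) and 15843 coding genes (grey). The NRF1 core stands at 22.2% against 4.89%, and the CCAAT box is close to the share of coding genes.

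The promoter windows of 4 called members are shown as examples that hold from none to 4 of the motifs. Capitals mark motif matches on either strand. COX19 is on chr7:975500-975799, NDUFAF5 on chr20:13784778-13785077, NDUFA10 on chr2:240025293-240025592 and ATP5J, listed as ATP5PF in RefSeq, on chr21:25735005-25735304, all on the minus strand but NDUFAF5.
COX19: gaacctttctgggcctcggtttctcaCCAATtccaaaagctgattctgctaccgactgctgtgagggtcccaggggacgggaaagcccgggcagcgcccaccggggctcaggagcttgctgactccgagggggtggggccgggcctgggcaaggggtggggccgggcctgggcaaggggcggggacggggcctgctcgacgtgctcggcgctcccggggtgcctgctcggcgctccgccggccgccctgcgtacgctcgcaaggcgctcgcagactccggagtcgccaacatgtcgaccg
NDUFAF5: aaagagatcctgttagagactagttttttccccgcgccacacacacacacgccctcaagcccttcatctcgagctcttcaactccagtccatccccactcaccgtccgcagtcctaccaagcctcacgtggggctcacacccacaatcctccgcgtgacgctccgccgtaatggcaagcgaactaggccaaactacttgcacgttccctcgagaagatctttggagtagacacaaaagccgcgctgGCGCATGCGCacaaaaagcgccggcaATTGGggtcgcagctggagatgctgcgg
NDUFA10: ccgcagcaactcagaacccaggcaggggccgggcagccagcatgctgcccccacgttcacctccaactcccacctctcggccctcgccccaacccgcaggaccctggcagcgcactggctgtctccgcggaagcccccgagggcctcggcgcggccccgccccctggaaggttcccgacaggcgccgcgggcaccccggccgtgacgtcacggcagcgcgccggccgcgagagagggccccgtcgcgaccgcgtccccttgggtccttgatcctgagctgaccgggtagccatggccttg
ATP5J: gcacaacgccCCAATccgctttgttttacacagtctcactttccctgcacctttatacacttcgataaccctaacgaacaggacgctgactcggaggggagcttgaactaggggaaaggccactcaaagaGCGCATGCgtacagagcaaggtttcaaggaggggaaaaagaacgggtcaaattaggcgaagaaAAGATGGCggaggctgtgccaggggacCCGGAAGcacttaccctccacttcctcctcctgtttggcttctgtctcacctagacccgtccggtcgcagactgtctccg
The COX19 window holds a CCAAT box at -224 from the start and none of the other motifs, and the NDUFA10 window holds none of the 5. NDUFAF5 has the NRF1 core on both strands at -4 and -2, as 1 overlapping palindrome, and a CCAAT box on the other strand at 22. ATP5J has a CCAAT box at -240, the NRF1 core at -120, the YY1 motif at -57 and an ETS core at -30. A second ATP5J window in RefSeq overlaps the first. It holds the same YY1 and ETS matches, at -207 and -180 from its own start, and a further ETS core at -8. The window of COX6B2, the other member that fell, holds 2 CCAAT boxes and no NRF1, ETS or YY1 match. Of the 5 motifs, only the CCAAT box was found for each of the 2 fallen members.

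Genes of the same pathway outside the symbol rule were mostly not called. CYCS, cytochrome c itself, had 149.2 and 137.3 CPM in siUPF1 cells and 144.0 and 144.0 CPM in control cells, and CYC1, the cytochrome of complex III, had a log2 fold change of -0.05, neither past the test. Of 41 further assembly factor symbols, which include older names of the same genes, 34 were in the table. All of these but SCO2 were tested, and the 33 had a median of 0.03 and no call. ACAD9, a complex I assembly factor, had 77.3 and 75.5 CPM in siUPF1 cells and 65.8 and 68.1 CPM in control cells (edgeR adjusted p = 0.059), and UQCC1, for complex III, had 88.8 and 80.4 CPM in siUPF1 cells and 75.7 and 73.2 CPM in control cells (edgeR adjusted p = 0.059). In both genes siUPF1 libraries lay above the controls, and with the density trend removed both passed (edgeR adjusted p = 0.035 and 0.030), as did TMEM126B (0.037). The 3 other complex V genes, ATPIF1, USMG5 and C14orf2, did not pass, and neither did any of 12 citrate cycle genes, with a median of -0.03.

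Among 12 regulators of mitochondrial gene expression, 2 fell and none rose, and the median was -0.11. That is 16.7% called, while 25.9% of all genes tested were called and 9.14% were called as fallen. PPARGC1B, a coactivator of mitochondrial biogenesis, had 50.5 and 66.5 CPM in siUPF1 cells, against 76.5 and 79.2 CPM in control cells (log2 fold change -0.41 ± 0.08, SE; edgeR adjusted p = 5.44e-06). Its value was -0.23 without siUPF1 replicate 1 and -0.62 without siUPF1 replicate 2, and both passed (edgeR adjusted p = 0.024 and 3.94e-11). PPRC1, a related coactivator, had 187.1 and 196.3 CPM in siUPF1 cells, against 221.0 and 217.1 CPM in control cells (log2 fold change -0.19 ± 0.07, SE; edgeR adjusted p = 0.031). Neither gene overlapped between the groups, and PPRC1 lost its call with DESeq2 (adjusted p = 0.079) and in 3 of the 4 fits without 1 library. POLRMT, the mitochondrial RNA polymerase, had 125.0 and 134.0 CPM in siUPF1 cells and 148.9 and 136.9 CPM in control cells and did not pass.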

How the data were processed

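Total RNA of H9 cells was sequenced, per the labels' protocols. The table gives, per the file headers, read counts and RPKM values that the authors deposited. The build hg19 and the tools STAR and DESeq2 are named, with no versions or roles, per the submitters' processing notes. The counter, its use of strand and its handling of repeated reads are not given in the sources used here. Both control count columns carry 1 name and are called control a and b, and 2 control RPKM columns were not used.

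Counts were tested with edgeR 4.0.16 in R 4.3.3 (TMM, filterByExpr, quasi-likelihood, two-sided), which kept 15557 genes and left out 385, with Benjamini-Hochberg adjustment at 0.05. The biological coefficient of variation was 4.47%, and the test took 1 trended spread for all genes. Depth was 8887239 to 11200973 counts. Transcript length came from siUPF1 counts, RPKM and library totals, and the 2 siUPF1 libraries gave lengths over 5% apart for 2 members. No gene with at least 100 counts exceeded 1.12 reads per base. Alternatives were RLE and library-size scaling, DESeq2 1.42.0, limma 3.58.1 voom, no filter, a filter of 5 CPM in 2 libraries, the density trend removed (loess span 0.3), genes under 0.25 reads per base alone, and each library left out. Scripts were tested on simulated data. The labels name no batch.

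Members and lists were chosen with earlier results of these data known. Named genes were UPF1, the 3 members of each class with the smallest p and those of highest and lowest read density, the 10 largest fold changes among members with at least 5 CPM, tissue-specific sister forms, the 3 smallest p of each outside list and members left untested. Some named by this rule are given as counts.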

Additional observations from a re-analysis of the deposited data

How the results depend on the processing

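COX19 kept its direction and call under all 12 alternatives, and the members' median kept its sign, between -0.16 and -0.04 with 1 library left out. DESeq2 called 1 member as risen and none as fallen (0), and 1274 and 465 of all genes. One member fell with the filter of 5 CPM, with the trend removed and with genes under 0.25 reads per base alone (1 each), and in the last 1717 of all genes rose. With 1 library left out, 2 to 5 members rose and 0 to 13 fell, the 13 without siUPF1 replicate 1, and 1443 to 2760 of all genes rose and 553 to 1527 fell. At an unadjusted p under 0.05, 5 of 97 members were higher and 7 lower by edgeR, against 3306 and 2372 of all 15557 genes. For single genes 551 values were alike, 20 lost a call, 17 gained one and 27 changed sign, none of them called in either fit. USMG5, at 0.003, changed sign with RLE scaling (-0.001), library size alone (-0.002), DESeq2 (-0.001) and no filter (-0.002). Log2 fold changes that changed sign were -0.018 for ATP5S, 0.060 for C14orf2, 0.010 for COX4I1, 0.010 for COX7A2, 0.037 for CYC1, 0.015 for SDHA and 0.007 for UQCRC1 with the density trend removed, and -0.004 for ATP5S with genes under 0.25 reads per base alone. With 1 library left out, log2 fold changes that changed sign ran from -0.11 to 0.023 for ATP5G3, -0.092 to 0.064 for C14orf2, -0.019 to 0.52 for COX20, -0.11 to 0.077 for COX7A2, -0.12 to 0.009 for CYC1, -0.068 to 0.051 for CYCS, -0.15 to 0.004 for NDUFA4, -0.033 to 0.010 for SDHA, -0.085 to 0.016 for SDHC, -0.17 to 0.023 for UQCRB and -0.070 to 0.078 for USMG5. Without 1 library, a group of 1 library is assumed to vary like the other. The density trend and the siUPF1 depth run together, and that cause was not tested. With 2 libraries a group and 20 or fewer counts in each library, COX6B2 has wide counting error. No paired analysis was possible because both control columns carry the same name and no replicate number.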
